A study of Drosophila melanogaster with 6 samples.

Results

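The genes described here carry only a CG number, the identifier that the fly genome annotation gives to a predicted gene, and had higher RNA levels in whole Drosophila embryos that overexpressed the transcription factor Sage. Members were genes whose platform symbol is CG plus digits, each read by its brightest probe set. Members were chosen by 2 measured values, a mean log2 level in Sage overexpression at least 1 above that in wild type, which is 2-fold, and no overlap between the groups' arrays. A further 8 CG-number genes that meet the same rule were set aside by name. This left 158 genes of 5209 with a CG number and of 11983 genes in all. The same values chose the members and describe them, so differences between the groups are given without a test, and the groups of every member are apart by the rule alone.

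RNA was measured on 6 Affymetrix arrays, 3 for wild type embryos and 3 for embryos with a UAS-Sage transgene under the tub-Gal4 driver. Both groups have the Oregon R background, and all embryos were whole, at stages 11 to 16, aged at 25 C and sorted on a COPAS instrument, which sorts whole embryos in flow. The wild type embryos were matched in age. Neither a Gal4-only nor a UAS-only group was analysed here, so the driver and the transgene cannot be told apart from Sage itself.

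Sage is a basic helix-loop-helix factor that is normally made in the embryonic salivary gland, where it acts together with the FoxA factor Fork head. The tub-Gal4 driver carries a tubulin promoter and is active in most cells, so that the factor is made far outside its usual place. A CG number alone says nothing of what a gene does. The symbols of all 158 members were unchanged in the RefSeq gene table of the Release 6 assembly, as were those of all other CG-number genes found there. All 158 were listed there as protein coding. In whole embryos, more cells of a type and more RNA per cell cannot be told apart.

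The sage probe set read 7.68, 8.08 and 7.40 on the wild type arrays and 12.17, 12.31 and 12.28 on the Sage arrays, so the targeted gene matched the labels on all 6 arrays. The 70 control probe sets taken as lacking a fly target reached group means of up to 5.35, which is called the control range here. Markers of neurons, glia and somatic muscle lay above it in wild type for 4 of 4, 3 of 3 and 2 of 2 measured genes. The 24 bacterial spike-in probe sets were all lower on the Sage arrays, by a median log2 difference of -1.65. The 5′ and 3′ probe sets of actin differed by -1.38 and -0.09, and those of eIF-4a by -1.21 and -0.39. For GAPDH the 5′ probe sets differed by -1.21 and -0.87 and the 3′ probe sets by -0.38, -0.36 and -0.59. These controls of labelling and RNA quality moved with the group, and their part in the values below was not tested. Over all genes the median difference was -0.01.

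Across the members, log2 differences ran from 1.001 to 3.83 with a median of 1.36, against a median of 0.01 over the other CG-number genes. The difference was at least 2 for 29 members and at least 3 for 6. Of the members, 44 had wild type means within the control range. No fold is given for them, and their log2 differences are not exact. CG16727, CG43218, CG9040 and CG40486, with differences of at least 3, are among these 44. All 158 members had Sage means above the control range, the lowest being 5.38 in CG11893. In limma, fitted over all 11983 genes, 523 genes (4.36%) rose at an adjusted p under 0.05, as did 5.16% of CG-number genes, and 127 of the 158 members were among them. Over all genes 446 (3.72%) fell, so that 8.09% changed in either direction. The other 31 members were not called, and 0 members were lower. This count only restates the choice of members. The rule itself, with the 8 set-aside genes included, was met by 3.19% of CG-number genes, 2.04% of genes with another name and 2.54% of all genes, and its mirror image by 78 CG-number genes that were lower. Separation of the arrays alone, without the minimum of 1, was met by 15.7% of all genes. The count of genes that rose changed with the arrays used. With wild type array 2 left out, 857 rose. Leaving out wild type array 1 gave 310, and Sage arrays 1, 2 and 3 gave 260, 225 and 199. With the replicate number as a replicate block, a pairing that the labels do not give, 881 rose (7.35%).

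**Figure D1:**
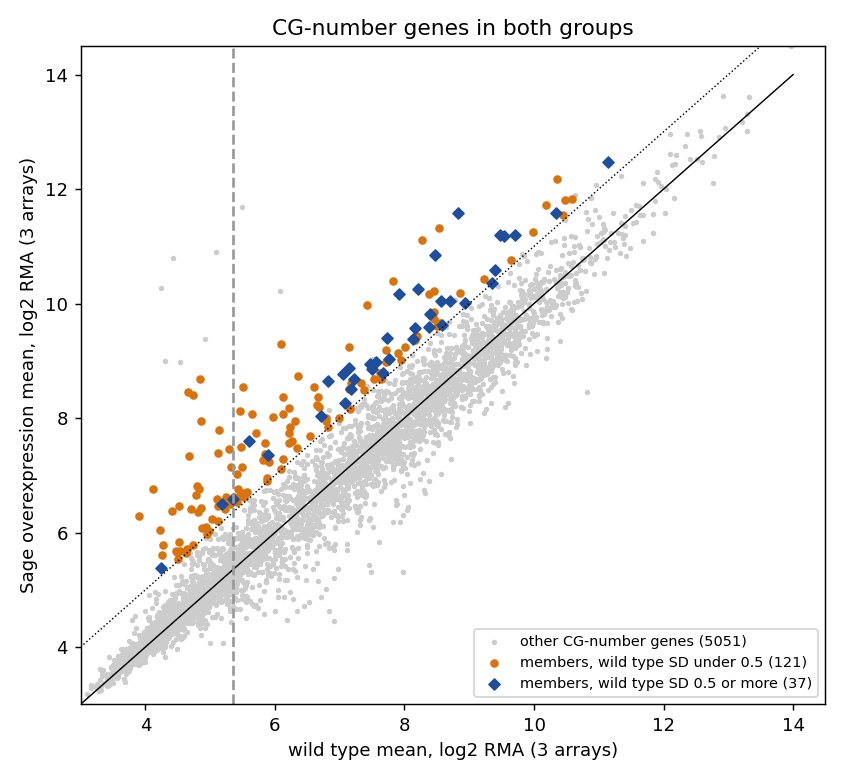
Mean log2 RMA value in wild type (x axis, 3 arrays) against Sage overexpression (y axis, 3 arrays) for all CG-number genes. Grey points are the 5051 other CG-number genes, including the 8 set aside; orange circles are the 121 members with a wild type SD under 0.5 and blue diamonds the 37 members at or above it. The solid line marks equal means, the dotted line a difference of 1, and the dashed line the top of the control range at 5.35.

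Of the 15 members with the largest computed differences, 7 had wild type means within the control range, and their order carries no information. CG16727 read 4.79, 4.94 and 4.81 in wild type and 8.70, 8.73 and 8.59 in Sage overexpression. CG43218 read 4.43, 4.84 and 4.72 against 8.47, 7.95 and 8.96, and CG9040 read 4.94, 4.50 and 4.79 against 8.72, 8.18 and 8.30. These 3 genes sat within the control range on all wild type arrays and well above it on all Sage arrays.

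CG31075 started above the control range, at 5.81, 6.49 and 5.97, and reached 9.24, 9.44 and 9.19. Its mean was 9.18-fold higher, with a log2 difference of 3.20 (SE 0.22, n = 3 per group). CG3348 stood at 7.76, 8.41 and 8.63 in wild type and at 11.03, 11.38 and 10.93 in Sage overexpression, 7.19-fold higher. The groups were separated by 2.70 in the first gene and 2.30 in the second, more than the range within either group.

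CG11825 went from 8.65, 8.30 and 8.63 to 11.44, 11.34 and 11.17, 6.90-fold higher. A synonym in the RefSeq table is dHIG1, after the hypoxia-induced gene 1 family of mitochondrial membrane proteins. CG43134 went from 5.16, 5.88 and 5.33 to 8.01, 8.22 and 8.15, and CG31337 from 7.38, 7.56 and 7.30 to 9.87, 10.10 and 9.94. The arrays of CG31337 lay close together in both groups (SD 0.13 and 0.12), and its mean was 5.89-fold higher. CG16826 read 4.04, 4.16 and 4.14 in wild type, all within the control range, and 6.91, 6.24 and 7.11 in Sage overexpression.

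**Figure D2:**
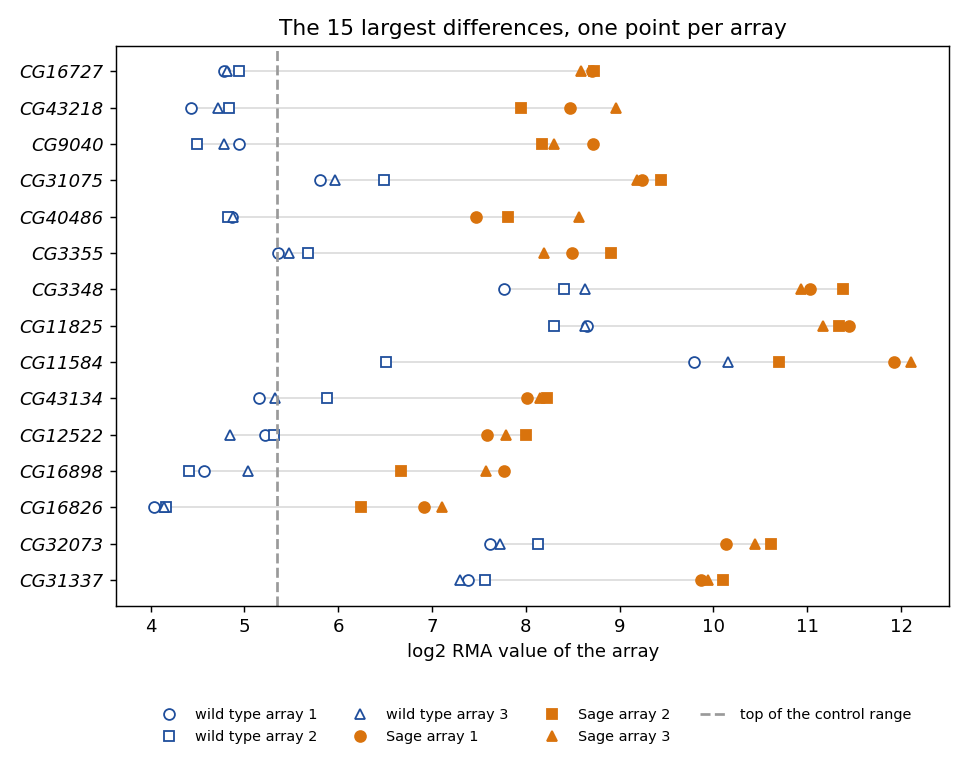
Log2 RMA value on each array (x axis) for the 15 members with the largest difference of means (y axis). Open blue symbols are wild type arrays and filled orange symbols Sage arrays, with circle, square and triangle for arrays 1, 2 and 3, and the dashed line is the top of the control range. Each gene shows 2 separate clusters of points except CG11584, whose wild type points spread from 6.51 to 10.15.

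Some members carry synonyms that place them in enzyme families, although their symbol is a number. The families below were chosen after the values were seen and were defined by synonyms alone. Counts over each whole family stand beside the members, which were picked on the same values and add nothing to them. Serine proteases cut other proteins and often act in cascades, as in digestion or immunity. Of 170 measured genes with an SP serine protease number up to 250, 11 rose and 5 fell in limma (6.47% and 2.94%, against 4.36% and 3.72% of all genes). The family median was 0.05, and 4 of the 11 were members.

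CG3355 (SP21) read 5.36, 5.68 and 5.47 in wild type and 8.49, 8.91 and 8.20 in Sage overexpression, 8.17-fold higher. CG9737 (SP5) read 6.05, 6.44 and 6.45 against 7.79, 7.92 and 8.12, or 3.10-fold. The Sage arrays spread more in the first gene (SD 0.36) than in the second (SD 0.17). CG10472 (SP78) read 6.89, 6.24 and 6.91 against 7.66, 8.05 and 8.89, with a Sage SD of 0.63. CG30187 (SP222) had a mean of 4.93 ± 0.13 (SD, n = 3), within the control range, in wild type and 6.10 ± 0.10 in Sage overexpression.

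Members of the ecdysteroid kinase-like family, some of which phosphorylate steroid hormones, carry Dro clade numbers among their synonyms. CG16898 (Dro26-1) read 4.57, 4.41 and 5.04 in wild type and 7.77, 6.67 and 7.58 in Sage overexpression. CG31974 (Dro43-0) read 5.61, 4.81 and 5.47 against 7.69, 7.23 and 7.46. The groups of both genes were separated by 1.62. CG11893 (Dro5-6) met the rule on thin margins. It read 3.78, 4.14 and 4.80 in wild type and 6.42, 4.84 and 4.86 in Sage overexpression. Only Sage array 1 lay above the control range. The difference of 1.14 rests on that array and is 0.61 without it. Over the 46 measured genes of the family 4 rose and 4 fell (8.70% each way, against 4.36% and 3.72% of all genes), with a median of -0.01.

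Mucin-type O-glycans are sugar chains on secreted proteins, begun by GalNAc transferases and extended by core 1 galactosyltransferases. CG8708, listed with the synonym dC1GalT2, read 8.32, 8.73 and 8.10 in wild type and 9.93, 10.44 and 10.11 in Sage overexpression, 3.42-fold higher. CG3119, listed as dC1GalT7, read 5.94, 5.72 and 5.99 against 6.98, 6.87 and 7.02, or 2.10-fold. CG10000, listed as dppGalNAcT10, went from 4.73, 4.39 and 4.77 to 5.79, 5.54 and 5.63. In each of these 3 genes the lowest Sage array lay at least 0.76 above the highest wild type array.

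Of 23 measured genes with C1GalT, ppGalNAcT or Pgant in their names, 6 rose and 0 fell in limma at an adjusted p under 0.05 (26.1% rose, against 4.36% of all genes), with a family median of 0.04. This family was chosen and narrowed with the values known, and 3 of the 6 are members, so the share supports nothing by itself. The other three that rose were Pgant6 (log2 difference 0.83), Pgant3 (0.73) and CG34057 (0.57). C1GalTA, a core 1 galactosyltransferase, was not called and had a difference of 0.01.

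Synonyms were informative for a few more members. CG40486, listed as FOHSDR, a name for dehydrogenases that act on farnesol, read 4.87, 4.83 and 4.88 in wild type and 7.46, 7.81 and 8.57 in Sage overexpression. CG1894, listed as a histone acetyltransferase (HAT), read 8.95, 7.82 and 8.65 against 11.34, 9.95 and 11.24, with the arrays numbered 2 lowest in both groups. CG3376, listed as the acid sphingomyelinase aSMase, which splits a membrane lipid, read 9.79, 9.37 and 9.80 against 10.73, 10.80 and 10.73, or 2.15-fold. CG17646, listed as the ABC transporter ABCG1, read 8.66, 8.60 and 8.40 against 9.54, 9.85 and 9.58, or 2.16-fold.

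The members differed in how far their wild type arrays spread. The median wild type SD was 0.25 over the members and 0.19 over all genes. For description, members were divided at an SD of 0.5, a limit chosen after the values were seen, into 121 below it, called steady here, and 37 at or above it, called unsteady. The SDs run on without a break at this limit, with 0.48 just below it and 0.51 just above. Among the 37, wild type array 2 was the lowest of the wild type arrays for 34 genes (91.9%). It was lowest for 43.8% of the steady members, for 58.1% of the other CG-number genes with an SD this large, and for 71.3% of all genes with an SD this large. Whatever the SD, it was lowest for 32.6% of all genes. Because the rule uses the wild type mean, a low value on 1 wild type array by itself enlarges the difference that chose these genes.

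CG11584 was the extreme case. It read 9.80, 6.51 and 10.15 in wild type and 11.93, 10.70 and 12.11 in Sage overexpression, with a wild type SD of 2.01. Its difference of 2.76 (SE 1.24) was 1.603 without wild type array 2. CG13679 read 8.49, 6.26 and 8.46 against 8.66, 9.77 and 9.76, and CG14147 read 9.82, 8.24 and 10.53 against 11.33, 10.65 and 11.53. In all 3 genes wild type array 2 stood well below the other wild type arrays.

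Over the 37 unsteady members, wild type arrays 1, 2 and 3 deviated from the gene's wild type mean by medians of 0.42, -0.94 and 0.53. Same-numbered arrays differed by medians of 0.90 for number 1, 2.12 for number 2 and 1.15 for number 3. Without wild type array 2 the difference was below 1 for 21 of the 37 and for 11 of the 121 steady members, leaving 126 of 158 at 1 or more. The smallest was then 0.53, in CG13043. Leaving out another array in turn left between 145 and 154 members at 1 or more. Limma called 9 of the 37 unsteady members and 118 of the 121 steady ones higher, against 4.36% of all genes. A large wild type SD by itself makes a call less likely, so these counts partly restate the division.

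**Figure D3:**
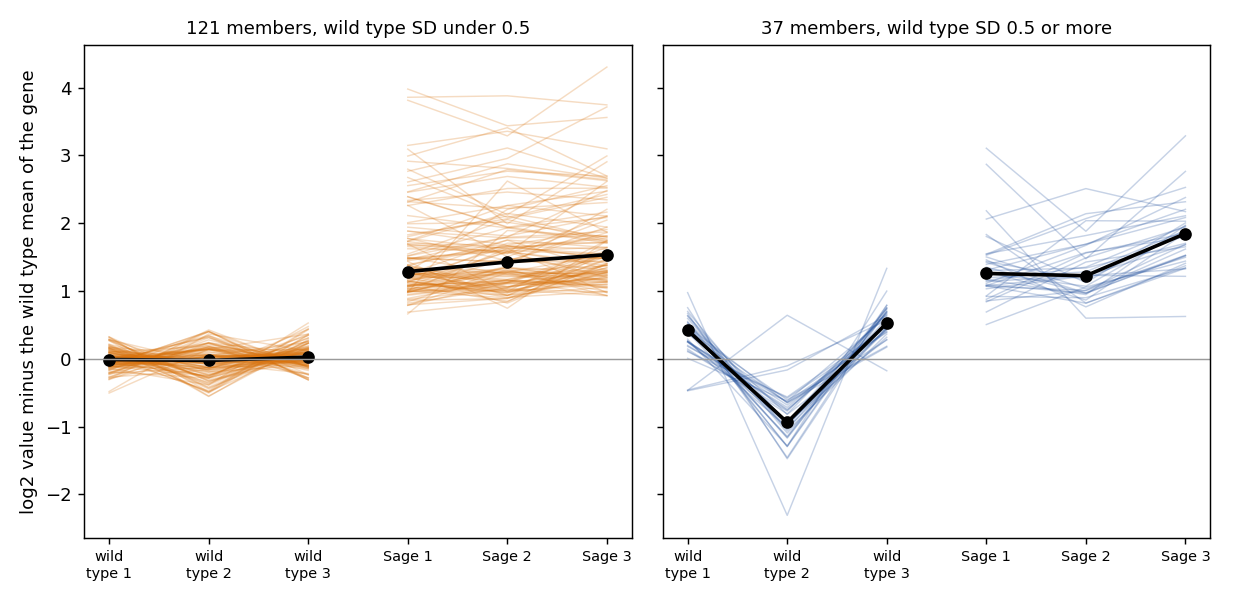
Log2 value on each array minus the wild type mean of the same gene (y axis) for the 121 members with a wild type SD under 0.5 (left) and the 37 members at or above it (right). Thin lines are genes, broken between the groups, and black points are medians. Wild type array 2 has a median of -0.94 in the right panel and -0.02 in the left. The panels are split on wild type SD, so wider wild type spread on the right follows from the split.

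**Figure D4:**
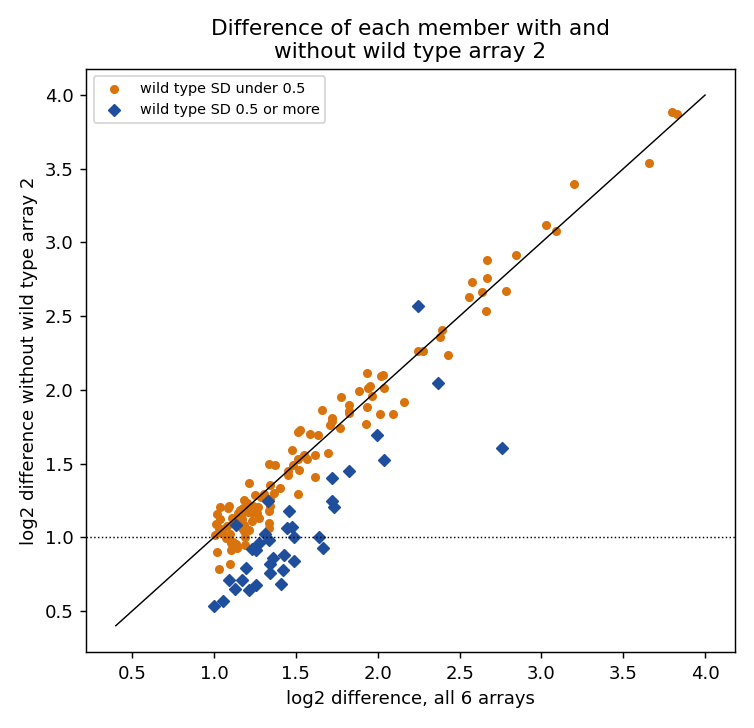
Log2 difference, Sage overexpression minus wild type, of each member with all 6 arrays (x axis) and without wild type array 2 (y axis). Orange circles have a wild type SD under 0.5 and blue diamonds one of 0.5 or more; the solid line marks equal values and the dotted line the minimum of 1. Of the 158 members 32 lie below the dotted line, 21 of them blue.

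The tissue marker lists differed in where wild type array 2 stood, against shares over all genes of 32.6% lowest and 50.7% highest. It was the lowest for 4 of 5 epidermis and cuticle markers, 2 of 2 muscle, 3 of 4 midgut, 2 of 2 Malpighian tubule, 2 of 4 neuron and 2 of 4 hemocyte markers. In glia, trachea and germ line it was the lowest for 1 of 3 each, and in adult females for 1 of 5. It was the lowest for 0 of 2 fat body, 0 of 7 larval gland and 0 of 6 testis and adult male markers, and the highest for 2, 5 and 4 of these. Only 0, 1 and 1 genes of these 3 lists lay above the control range in wild type. The place of array 2 in these lists therefore carries little information. TwdlT, a cuticle protein gene, read 9.97, 9.25 and 10.59 in wild type and 12.70, 12.47 and 12.56 in Sage overexpression. Cpr67Fb, a chitin-binding cuticle protein gene, read 6.54, 5.76 and 6.59 against 8.04, 8.46 and 8.83. Of the 5 epidermis and cuticle markers 3 rose in limma (TwdlT, Cpr67Fb and Edg91) and 0 fell. Their mean per array lay between 6.92 and 7.46 in wild type, lowest on array 2, and between 8.40 and 8.62 in Sage overexpression. The epidermal regulator grh had a difference of -0.07, and the tanning enzyme gene ple lay in the control range in both groups. For somatic muscle, whose markers were not called (0 of 2), the mean per array lay between 10.2 and 11.1 in wild type and between 10.9 and 11.0 in Sage overexpression. The part of tissue makeup or stage in the unsteady members was not tested.

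Salivary gland markers were mostly higher in Sage overexpression. PH4alphaSG1, a prolyl 4-hydroxylase subunit of the gland, read 8.85, 9.11 and 8.37 in wild type and 10.21, 10.38 and 10.24 in Sage overexpression. Wild type array 2 was the highest for 4 of the 6 gland markers and the lowest for the other two, fkh and sens, near the shares over all genes. Of the 6 markers, sage itself included, 5 rose and 0 fell, and their mean per array ran from 8.16 to 8.62 in wild type and from 10.1 to 10.3 in Sage overexpression. Of 7 larval gland genes 2 rose, Eig71Ee and Sgs4, and the others had differences between -0.14 and 0.10.

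Among the remaining tissue lists few genes were called. Neuron markers (0 of 4), glia markers (0 of 3) and Malpighian tubule markers (0 of 2) gave no call in either direction. Neither did the 2 fat body markers, which lay within the control range in wild type, so that a decrease could not be seen. One gene rose in each of the trachea, hemocyte, midgut and adult female lists, namely serp, Pxn, alphaTry and Yp3. The germ line gene aub fell, by 0.67 on the log2 scale. None of the 6 testis and adult male genes was called, and 1 of them, twe, lay above the control range in wild type. It read 5.99, 6.06 and 7.83 in wild type and 4.90, 4.52 and 5.14 in Sage overexpression. In the same list bam had a difference of -0.97, and the others lay between -0.33 and 0.02. Among the glia markers moody had 1.01, with separate groups, and gcm and repo had -0.18 and -0.36. The absence of a call did not always mean a small difference.

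Some members were neighbours on the chromosomes. Of the 158, 14 (8.86%) were direct neighbours of another member or of a set-aside gene in the gene order of the RefSeq table, and 29 (18.4%) lay within 2 places. Among 4971 other CG-number genes with a known place, 2.33% were direct neighbours of such a gene and 4.22% lay within 2 places. These shares are a description. Whether neighbours are related copies, or their probe sets share sequence, was not tested. Of the members 57 (36.1%) lay on chromosome arm 3L, which holds 1038 of the 5137 CG-number genes found in the table (20.2%), and 20 of the 37 unsteady members did.

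Pairs of neighbours differed in how steady they were. CG32073 and CG12522, adjacent on 3L, were both even, the latter from wild type values within the control range. CG32073 read 7.62, 8.13 and 7.72 in wild type and 10.13, 10.61 and 10.45 in Sage overexpression, 5.96-fold higher, and CG12522 read 5.22, 5.32 and 4.84 against 7.59, 8.004 and 7.79. CG9040 lay beside CG17362, whose mean went from 4.98 in wild type to 6.02 in Sage overexpression. On 2L CG42329, with means of 3.90 and 6.30, lay beside CG5397, with a difference of 1.66. The wild type means of CG17362 and CG42329 lay within the control range. CG14095 and CG14096 on 3L were both uneven, with wild type SDs of 0.90 and 1.12 and differences of 1.34 and 1.42, and so were CG15212 and CG15213, with differences of 1.25 and 1.49. CG31233 and CG31198 on 3R had differences of 1.72 and 1.03, and CG7406 and CG14191 on X 1.24 and 1.05.

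Genes between members did not always follow them. CG10472 and CG6602 on 3L had differences of 1.52 and 1.97, the latter from a wild type mean of 4.41, within the control range. CG42269 between them had -0.20. Both its group means (4.97 in wild type and 4.78 in Sage overexpression) lay within the control range, so it carries little information. CG11345, between CG12607 (1.73) and CG15022 (1.34), had 0.27. Another run on 3L joined CG12310, CG13461 and CG18649, with differences of 1.14, 1.55 and 1.72 and wild type means of 6.54, 4.82 and 9.48. The 2 genes that lie between these 3 were not analysed here.

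A stretch of 3L around CG13059 held several members. Of the 32 measured genes within 20 places of it, 6 were members and 27 had positive differences. Their median was 0.37, against -0.01 over all genes. CG13059 read 10.26, 8.42 and 10.46 in wild type and 11.15, 10.88 and 11.58 in Sage overexpression, CG13060 read 8.003, 6.65 and 7.75 against 8.55, 9.04 and 9.26, and CG13041 read 9.03, 7.30 and 8.86 against 9.27, 9.95 and 10.24. In all 6 members wild type array 2 was the lowest, as it was in 21 of the 32 genes (65.6%, against 32.6% of all genes). CG13056 was even, at 4.86 ± 0.08 on the wild type arrays, within the control range, against 6.43 ± 0.09 on the Sage arrays (SD, n = 3). Beyond CG13059 lie CG13040, with a difference of -0.01, and then CG13039, with 0.01 and both group means within the control range. The non-members retinin, CG4998 and CG13048 had differences of 1.28, 1.25 and 1.23, with overlapping groups in CG4998 and CG13048. Limma called 4 of the 32 genes higher (12.5%, against 4.36% of all genes), the members CG4962 and CG13056 and the genes retinin and Pdh. The stretch was centred on a member and its 6 members were chosen on these values, so its counts are partly set by that choice.

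**Figure D5:**
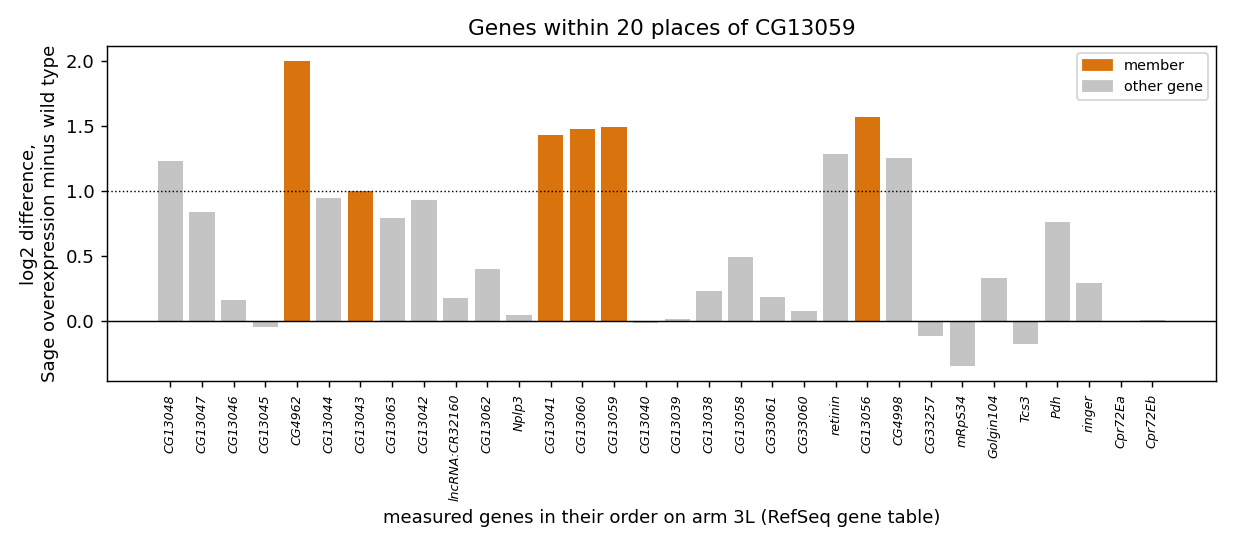
Log2 difference, Sage overexpression minus wild type (y axis), of the 32 measured genes within 20 places of CG13059, in their order on arm 3L (x axis, gene order only). Orange bars are the 6 members and grey bars other genes; the dotted line marks the minimum of 1. The members range from 1.001 to 1.999, and genes that stay near 0 lie among them.

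Spread among the Sage arrays also varied from gene to gene. CG31145 had the smallest SD, 0.01, at 10.42, 10.43 and 10.44, against 9.27, 9.15 and 9.25 in wild type. CG11893 and CG13445 had the largest, 0.91 and 0.82. CG13445 read 4.21, 4.30 and 4.17 in wild type and 5.21, 6.85 and 6.09 in Sage overexpression. CG6602 had the smallest wild type SD, 0.02, at 4.41, 4.40 and 4.44, within the control range. Sage array 3 was the highest of the Sage arrays for 83 of the 158 members (52.5%), against 23.5% of all genes. The share was 78.4% of the unsteady members and 44.6% of the steady ones. A high value on 1 Sage array by itself enlarges the difference that chose the members, so these shares are partly set by the rule.

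Members were read mostly by probe sets of a single design. For 139 of 158 the name ends in _at alone, which marks probes unique to a transcript in the array's design, and 10 end in _s_at, 7 in _a_at and 2 in _x_at, which can match several transcripts. A further probe set was measured for 13 members, 16 in all. Of these 16, 11 had both group means within the control range and so carry little information. Only 1 of the other five had a difference of 1 or more, in CG15213, with 1.51 against 1.49 on the chosen probe set. CG3119 had 0.72 against 1.07, CG5326 0.39 against 1.41, CG13679 0.36 against 1.66, and CG7920 -0.09 against 1.10. In these 4 genes the measured difference varied with the probe set read. For CG13679 the further probe set had a wild type mean of 5.23, within the control range, so its difference is not exact. Positions of probe sets along the transcripts were not used.

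Several members met the rule narrowly. The 5 with the smallest differences were CG13043 (1.001), CG46491 (1.01), CG13893 (1.01), CG10962 (1.02) and CG10000 (1.02). Just outside it were CG10598 (0.998), CG10657 (0.99), CG14770 (0.99), CG30457 (0.99) and CG14515 (0.98). In 4 members, CG8192, CG13043, CG11893 and CG14096, the lowest Sage array lay less than 0.1 above the highest wild type array. A further 9 CG-number genes had differences from 1.01 to 1.51 but overlapping groups, and in all 9 wild type array 2 was the lowest of its group.

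Member genes were somewhat shorter than other genes in the annotation. Their median genomic length was 1495 bases, against 1726 in the other CG-number genes and 2263 over all genes, and it was 902 in the 37 unsteady members. Lengths ran from 388 bases to 63909. Length was not a part of the rule, and no test of it was made.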

How the data were processed

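Per the submitters' processing notes, the authors used RMA and Partek; versions, order and filters are not given in the sources used here. The deposited values are taken as log2 values because they run from 2.90 to 14.6 with array means of 6.36. Of 18952 probe sets, 183 Affymetrix controls were set apart. The platform annotation pairs 13647 probe sets with 1 gene and 402 with several; 4720 are unnamed, and only the first kind was used. RefSeq's Release 6 gene table matched 13544 of the 13647 and gave synonyms and gene order. Each gene was read by the probe set with the highest mean. Limma 3.58.1 in R 4.3.3 (lmFit, eBayes, two-sided, Benjamini-Hochberg over 11983 genes, threshold 0.05) gave the background counts. The standard error of a difference comes from both group SDs.

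The labels number the replicates 1 to 3 in both groups without saying what a number shares. Deviations from the group means correlated at 0.39, 0.67 and 0.33 between same-numbered arrays. The numbers were taken as pairs in the replicate block. Deviations also correlated at 0.43 for wild type 3 with Sage 1 and at 0.26 for wild type 1 with Sage 3. Within a group the deviations cancel out, so these correlations are not independent and cannot decide the pairing. The block was chosen on the values it was then used on, so its counts hold only if the numbers are pairs. The labels do not say that replicates came from separate cultures, so the spread behind a p-value may be technical. The number of arrays limits the precision.

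Members, families and limits were chosen with earlier results of these data known. Named members are the 15 largest differences, those next to the limits, neighbours of other members, those with differing probe sets, those with the smallest or largest SD, and, chosen after their values were seen, those with informative synonyms and a few typical members. The protease family leaves out SP numbers above 250 and the transcription factor Sp1, and the O-glycan family leaves out genes of other glycans; both definitions were narrowed by gene identity after first counts. Markers of tissues were listed for neurons, glia, somatic muscle, epidermis and cuticle, trachea, hemocytes, fat body, midgut, Malpighian tubule, salivary gland, larval gland, germ line and adults. On simulated data for this comparison with 11983 genes, limma recovered 8%, 74%, 96% and 100% of genes changed by 0.5, 1, 2 and 4 on the log2 scale. Each size was given to 50 genes, and 6 of the 145 calls were of unchanged genes. The simulated noise was independent between genes and arrays, whereas the real arrays share deviations, so these shares may not hold for them. Alternatives were other scalings, filters, minimums and fits, and leaving out arrays. Planned work on protein and promoter sequences was not run, and sequences were not used here. Tables and plots used pandas 2.3.3 and matplotlib 3.10.9 under Python 3.11.15.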

Additional observations from a re-analysis of the deposited data

How the results depend on the processing

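Of 15 alternatives, 14 gave a number of members within 1.5 times of 158, from 136 to 221, and a minimum difference of 1.5 gave 64. The setting with the RefSeq symbol gave the same 158 and adds little, because no CG-number gene found there has another symbol. Leaving out 1 array gave 136 members (without wild type 2) to 197 (without wild type 3). Members that limma called numbered 127, and 63 of the 88 tested when only genes brighter than the median were kept, where fewer genes were tested; leaving out 1 array gave 93 to 139, and the replicate block 149. Genes changed in either direction numbered 969 over all genes, 1767 with the replicate block and 502 among the 5991 brighter genes. Leaving out 1 array gave 274 (without Sage 3) to 1650 (without wild type 2), with 362 and 320 without Sage 1 and 2; the cause was not tested. Alternatives on protein features and relatives were not run. With 3 arrays a group and 44 members starting within the control range, small differences and true folds of dim genes are poorly measured.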
